A study of Danio rerio with 4 samples.

Results

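The response of the dusp6 mutant zebrafish heart to resection was read as the difference between the dusp6 library at 20 days post amputation (20 dpa) and the uninjured dusp6 library, with no other library in the reference. These are 2 of the 4 libraries of the series, and 15052 of the 31388 genes in the table had at least 50 counts in either of them. RNA of whole heart ventricles was sequenced from adult zebrafish of 6 months to 1 year of age, with 1 library in each of 4 groups. The WT groups carried the genotype AB* and both dusp6 groups carried dusp6 pt30a/pt30a, so both sides of the comparison share the mutation. At each genotype 1 group was uninjured and 1 had been injured by ventricular resection and left to recover for 20 days. The labels do not say how many ventricles went into a library, what the pt30a lesion is, or at what time of day hearts were collected. The column headings of the uninjured libraries follow a different naming pattern from those at 20 dpa, so injury and the way the libraries were made cannot be told apart.

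The adult zebrafish heart regrows resected ventricle: the epicardium and endocardium become active, and heart muscle cells partly take down their contractile machinery and divide. Dusp6 is a cytoplasmic phosphatase that removes phosphates from ERK, the last kinase of the FGF and other receptor tyrosine kinase pathways. Its gene is itself a target of the pathway, so the enzyme acts as a feedback brake.

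Total counts were 60772311 in the uninjured dusp6 library and 55717125 at 20 dpa, beside 63222206 and 55197408 in WT. Transcripts of the mitochondrial genome took 17.7% to 18.7% of the counts in the 4 libraries. Genes for the contractile apparatus of heart muscle summed to 127370 CPM (counts per 1e6 of the column total) in the uninjured dusp6 library and 119913 CPM at 20 dpa, and to 129038 and 124979 CPM in WT. Heart muscle transcripts were thus abundant in all 4 libraries, as the tissue label says. Levels below are CPM of the column total. Differences are of log2(CPM + 1), which understates the change of genes with low levels. A called gene is one past a 2-fold difference on that scale. With 1 library a side there is no spread between replicates and no test, and every fold has only a counting interval. In a bulk sample, fewer cells of a type and less RNA per cell cannot be told apart.

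Of the 15052 genes, 489 (3.25%) were at least 2-fold higher at 20 dpa and 781 (5.19%) were at least 2-fold lower, so 8.44% were called in either direction. At a 4-fold difference 73 genes (0.485%) were higher and 76 (0.505%) were lower. Of all genes 41.1% were above 0 and 58.9% below. Most genes differed little, with 74.5% within 1.5-fold, a lower quartile of -0.43 and an upper quartile of 0.22 on the log2 scale. The median of all genes was -0.10, a shift that TMM scaling took to -0.009 and DESeq2 size factors to 0.0003. The excess of lower calls went with that shift. Higher genes were 38.5% of the calls by column total, 48.4% under TMM (600 higher and 639 lower) and 49.6% under DESeq2 size factors (614 higher and 625 lower). List medians below are therefore to be read against -0.10. The median of all genes also rose with their mean level in the 2 libraries. It was -0.23 under 1 CPM, -0.14 at 1 to 10 CPM, -0.07 at 10 to 100 CPM and 0.07 above 100 CPM. Lists of abundant or scarce genes are to be read against the value at their level. Calls within lists are to be read against the 3.25% higher and 5.19% lower of all genes. WT against its own uninjured library had 472 higher (3.12%) and 418 lower genes (2.77%) of 15111 above the floor, 5.89% in either direction, and the median of all genes there was -0.08. In the plot of difference against level, ahsa1a is the highest gene on this scale and pdk2b the lowest. Calls in both directions occurred at every level, and among the 1023 genes above 100 CPM 3.03% were higher and 2.83% lower.

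**Figure D1:**
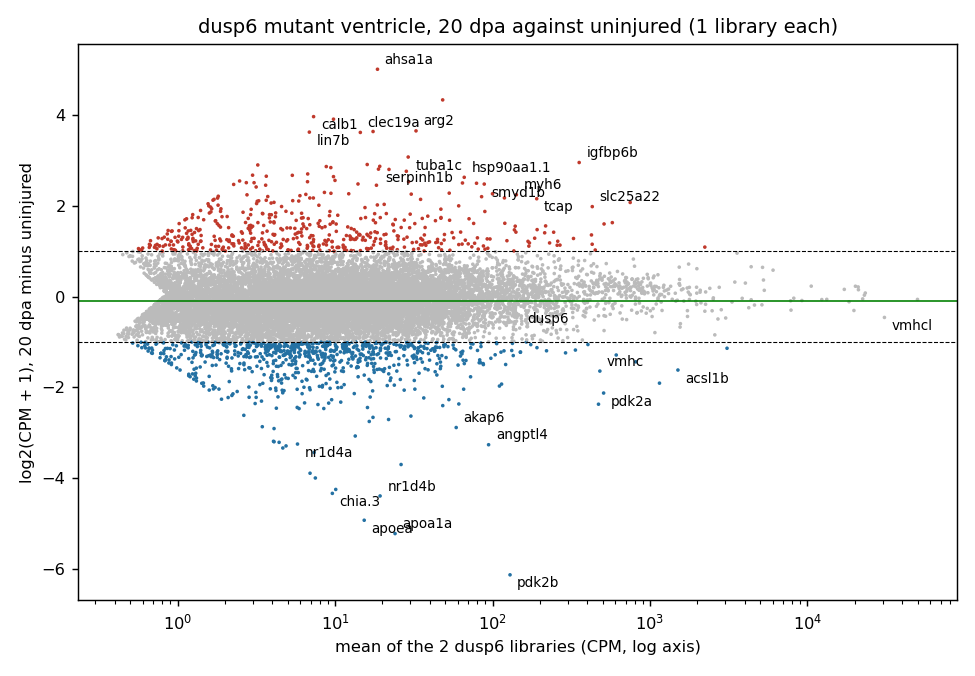
Difference between the dusp6 20 dpa and the dusp6 uninjured library, in log2(CPM + 1), against the mean level of the 2 libraries in CPM on a log axis; each point is 1 of 15052 genes and the coloured points are past a 2-fold difference. The cloud is centred at -0.10, with 489 genes above and 781 below the 2-fold lines and pdk2b the lowest at -6.13.

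The choice of control bears on which genes are counted. Of the 489 higher genes, 251 (51.3%) were also at least 2-fold higher than the uninjured WT library, and of the 781 lower genes 346 (44.3%) were also at least 2-fold lower. The uninjured dusp6 library by itself stood at least 2-fold above each of the other 3 libraries in 109 of the 781 lower genes (14.0%). It stood at least 2-fold below each of them in 60 of the 489 higher genes (12.3%). Among genes past 4-fold these were 31 of the 76 lower and 20 of the 73 higher.

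Several of the largest differences were of that kind. ahsa1a, which encodes a co-chaperone that speeds the ATP cycle of Hsp90, had 11 counts (0.181 CPM) in the uninjured dusp6 library and 37.01 CPM at 20 dpa, against 19.96 and 36.8 CPM in WT. Its 204-fold higher level (95% counting interval 114 to 410.2) thus rests on a low value in 1 library. The same held for itga2.3, an integrin alpha chain, at 0.0823 CPM uninjured and 5.91 CPM at 20 dpa with 1.76 and 1.63 CPM in WT. fah, the last enzyme of tyrosine breakdown, stood at 0.724 and 9.98 CPM in the mutant and at 8.97 and 5.598 CPM in WT. st6galnac5b, a sialyltransferase gene, had 2.995 and 29 CPM beside 21.2 and 16 CPM in WT. In all 4 genes the uninjured dusp6 library was the lowest, and the injured mutant library was above both WT libraries.

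In the other direction, several of the largest downward differences were in transcripts of liver and gut. The apolipoprotein gene apoa1a was at 47.8 CPM in the uninjured dusp6 library and 0.305 CPM at 20 dpa, and at 0.285 and 1.07 CPM in WT. apoea, another apolipoprotein gene, had 1859 counts uninjured and 2 at 20 dpa. The chitinase genes chia.3 and chia.1 had 1168 and 843 counts uninjured and 0 at 20 dpa, which puts chia.3 at least 357-fold and chia.1 at least 258-fold lower against a floor of 3 counts in the 20 dpa library. fabp2, the fatty acid binding protein of gut epithelium, had 319 counts uninjured and 1 count at 20 dpa. Reads of the near-identical chia copies may be split between them. Among the largest downward differences, lgals2b (9.297 CPM uninjured and 0.01795 CPM at 20 dpa), apoa4b.2 (9.68 and 0.0897 CPM) and krt92 (8.13 and 0 CPM) had the same pattern without being members of the liver and gut list, and their highest WT level was 0.109 CPM, of krt92 at 20 dpa. All of these genes were high in the uninjured dusp6 library alone. Over the list of 66 liver, gut, pancreas and gonad genes, 25 were above the floor, 9 were at least 2-fold lower and 1 higher (rbp4), and none of the 9 was lower against the uninjured WT library too. The median over the members was -0.54. In WT 16 of 28 members above the floor of that comparison were at least 2-fold higher and none lower, with a median of 1.24. These are not the same members, and over the 25 above the floor in the mutant comparison the WT median was 0.12. The list summed to 457.5 CPM uninjured and 400.1 CPM at 20 dpa in the mutant, and to 369.6 and 592.8 CPM in WT. Without these genes and the skeletal muscle genes 478 were higher and 772 lower, so they make up few of the calls.

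**Figure D2:**
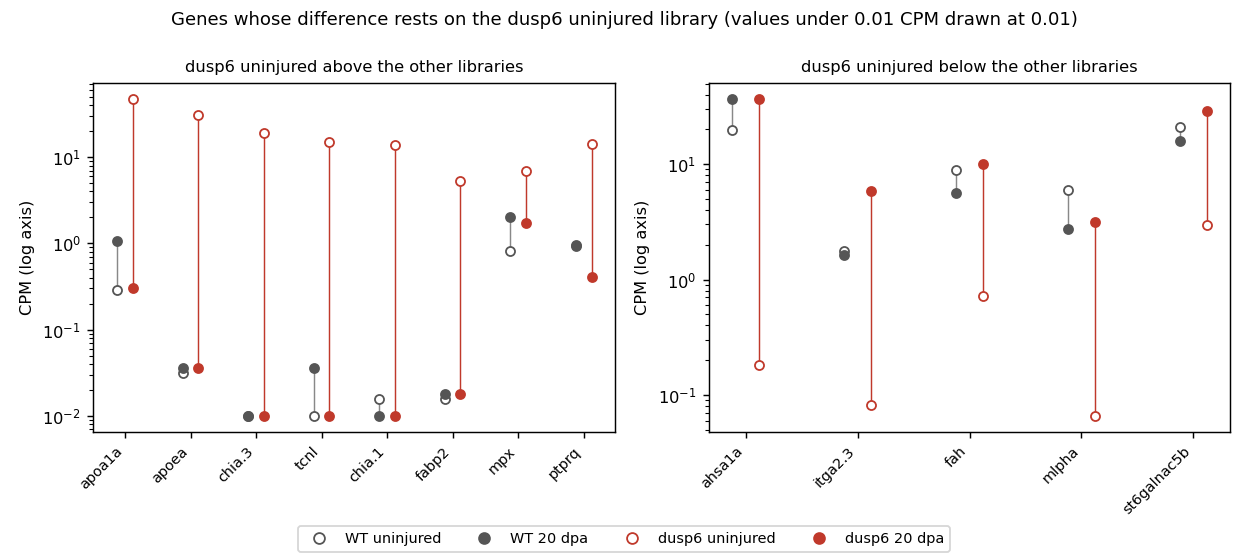
Level in CPM on a log axis (values under 0.01 drawn at 0.01) of genes for which the uninjured dusp6 library stood apart; each point is 1 library, grey for WT and red for dusp6, open for uninjured and filled for 20 dpa, and lines join libraries of a genotype. On the left the open red point is above the other 3, as for apoa1a at 47.8 CPM, and on the right it is below them, as for ahsa1a at 0.181 CPM.

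Pyruvate dehydrogenase kinases switch off the enzyme that feeds pyruvate into the tricarboxylic acid cycle, and so favour fat over sugar as fuel. pdk2b was at 256 CPM in the uninjured dusp6 library and 2.66 CPM at 20 dpa, 96.2-fold lower (95% counting interval 81.8 to 114). In WT it stood at 153 and 16.2 CPM, 9.404-fold lower. Both injured libraries were thus below both uninjured ones, and the mutant pair had the wider gap at both ends. pdk2a went from 826 CPM to 188 CPM in the mutant, 4.39-fold lower (95% counting interval 4.29 to 4.48), with 529.7 and 324 CPM in WT. pdk1 had 16.2 and 5.31 CPM in the mutant and 11.8 and 6.56 CPM in WT. These kinases were lower at 20 dpa in either genotype, while pdk4 differed little (382 CPM uninjured and 310.2 CPM at 20 dpa). Per length, the levels in the uninjured mutant library were 198 RPKM for pdk2a, 96.3 RPKM for pdk2b and 70.8 RPKM for pdk4. At 20 dpa they were 45.2, 1.003 and 57.7 RPKM, so pdk4 had become the highest of the 3. mpc2, a subunit of the carrier that brings pyruvate into mitochondria, was 1.73-fold higher (88.8 and 154 CPM). Among 17 genes of the pyruvate dehydrogenase group above the floor, 3 were called lower, all of them kinases and all lower against both uninjured libraries, and none was called higher. The group median was 0.08.

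Of 52 genes of fatty acid uptake and oxidation above the floor 7 (13.5%) were at least 2-fold lower and 2 (3.85%) higher, beside 5.19% and 3.25% of all genes, with a median of -0.24, and 4 of the 7 were also lower against uninjured WT. angptl4, a secreted inhibitor of lipoprotein lipase that fatty acids induce, was at 172 CPM uninjured and 16.96 CPM at 20 dpa, 10.1-fold lower (95% counting interval 9.47 to 10.8), beside 96.9 and 18.3 CPM in WT. mlycd removes malonyl-CoA, the inhibitor of fatty acid entry into mitochondria, and stood at 22.2 and 4.27 CPM, beside 21.4 and 8.12 CPM in WT. acsl1b, which activates long-chain fatty acids, had 2270.1 and 738 CPM in the mutant and 1957 and 883 CPM in WT. In these 3 genes both libraries at 20 dpa were below both uninjured ones.

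The muscle carnitine palmitoyltransferase gene cpt1b, which commits fatty acids to oxidation, was at 148 CPM uninjured and 60.1 CPM at 20 dpa in the mutant, a log2 difference of -1.28, and at 121 and 110.1 CPM in WT, a difference of -0.13. acadvl, the first enzyme of the mitochondrial spiral for very long chains, was at 4242 and 1925 CPM, beside 3052 and 2502 CPM in WT. ucp3, a mitochondrial uncoupling protein gene of muscle, had 40.03 and 18.1 CPM in the mutant and 22.5 and 27.4 CPM in WT. For cpt1b, acadvl and ucp3 the uninjured mutant library was the highest of the 4 and the injured mutant library the lowest. The 2 higher genes encode acyl-CoA synthetases of other membranes. acsl3b stood at 8.39 and 30.4 CPM and acsl4a at 9.26 and 26.6 CPM.

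Of 52 glucose uptake and glycolysis genes above the floor 4 (7.69%) were called higher and 2 (3.85%) lower, beside 3.25% and 5.19% of all genes. Of the 4 higher genes 2 were also higher than in uninjured WT, and of the 2 lower genes none was lower against it. The list median was 0.20, and -0.03 with uninjured WT as the reference. hk2, the insulin-responsive hexokinase of muscle, had 0.954 CPM uninjured and 5.96 CPM at 20 dpa, 6.24-fold higher (95% counting interval 4.71 to 8.402), and 1.79 and 10.3 CPM in WT. pfkfb2b, which makes the activator of phosphofructokinase, was at 4.21 and 15.13 CPM, beside 5.33 and 11.9 CPM in WT. The other higher genes were ldhbb and aldocb, with log2 differences of 1.40 and 1.13. Subunits of the respiratory chain differed slightly. Of 88 nuclear-encoded subunits of oxidative phosphorylation 81 lay above the median of all genes. The group median was 0.19, and 0.07 with uninjured WT as the reference, while all genes above 100 CPM had a median of 0.07. Only ndufb2 (36.9 and 115 CPM) was called higher and cox4i2 (14.99 and 5.6 CPM) lower. Among tricarboxylic acid cycle genes 0 of 26 were called, with a median of 0.02. The 13 genes of the mitochondrial genome had no call either, with a median of -0.06 that is 0.05 under DESeq2 size factors. Of 42 solute carriers of family 25 in the inner membrane 2 (4.76%) were higher and 3 (7.14%) lower, beside 3.25% and 5.19% of all genes. The higher ones were slc25a33 (pyrimidine nucleotides, 9.89 and 51.03 CPM) and slc25a22 (glutamate, 173 and 686 CPM). Of the 2 higher and the 3 lower genes 1 each was also past 2-fold against uninjured WT, with slc25a22 just short of it (0.999). The dicarboxylate carrier gene slc25a10 was 1 of 3 lower members, at 38.4 and 9.17 CPM.

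Of 31 genes of sterol synthesis and uptake above the floor 8 (25.8%) were higher and 3 (9.68%) lower, beside 3.25% and 5.19% of all genes, with a median of 0.32 (below 0 for members with 250 or more counts), and 6 of the 8 were also higher than in uninjured WT. The sterol demethylase gene cyp51 stood at 1.76 CPM uninjured and 8.87 CPM at 20 dpa, with 1.85 and 6.09 CPM in WT. fasn, the fatty acid synthase gene, had 8.74 and 33.6 CPM in the mutant and 14.4 and 45.7 CPM in WT. The LDL receptor gene ldlrb was at 0.313 and 3.18 CPM, against 0.459 and 3.53 CPM. In all 3 both injured libraries were above both uninjured ones. The lower members abca1a (121 and 45.2 CPM) and abca1b (41.4 and 19.7 CPM) encode exporters of cholesterol, and fdft1 makes squalene.

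In the circadian clock, Rev-erb receptors repress transcription of the clock activators, and the D-box factors Dbp, Tef and Nfil3 carry the rhythm to output genes. Of 18 members of these branches above the floor 7 (38.9%) were at least 2-fold lower, beside 5.19% of all genes, and none higher, with a median of -0.73, and 6 of the 7 were also lower against uninjured WT. nr1d4b, of the Rev-erb family, was at 37.8 CPM uninjured and 0.844 CPM at 20 dpa, 44.8-fold lower (95% counting interval 33.6 to 61.1), beside 61.6 and 1.43 CPM in WT. nr1d4a stood at 11.3 and 0.287 CPM, 39.2-fold lower (95% counting interval 23.96 to 68.96), beside 7.47 and 0.127 CPM. dbpb had 44.9 and 9.997 CPM in the mutant and 28.8 and 8.66 CPM in WT. In each of these 3 genes both injured libraries lay below both uninjured ones. Another Rev-erb gene, nr1d2b, went the other way (38.9 and 68.8 CPM). The retinoid orphan receptor gene rorcb, a member of the activating branch, was lower at 100.1 and 45.2 CPM.

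In the core loop 5 of 27 genes (18.5%) were called lower and 2 (7.41%) higher, beside 5.19% and 3.25% of all genes. The median was -0.27, and 4 of the 5 were lower against uninjured WT as well. clocka_1 and arntl2, whose proteins are partners in the activating dimer, stood at 11.7 and 3.03 CPM and at 13.8 and 5.03 CPM. WT values were 12.2 and 2.48 CPM for clocka_1 and 13 and 4.24 CPM for arntl2. arntl1b, fbxl3a and cry1bb were the other lower genes. The higher genes were the transcriptional repressors bhlhe40 (29.8 and 80.8 CPM) and bhlhe41 (3.82 and 9.51 CPM). Time of day at collection is not in the labels, and its part in these values was not tested.

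Of 52 autophagy and lysosome genes above the floor 8 (15.4%) were called lower, beside 5.19% of all genes, and none higher, the median was -0.47, and 11 lay above the median of all genes. Only 2 of the 8 were also 2-fold lower than uninjured WT. fbxo25, a list member that encodes an F-box subunit of ubiquitin ligases, had the largest difference. It stood at 24.8 CPM uninjured and 2.06 CPM at 20 dpa, 12.01-fold lower (95% counting interval 9.93 to 14.7), and at 12.3 and 1.09 CPM in WT. ulk1b, the kinase that starts autophagy, stood at 27.1 and 8.17 CPM beside 17.8 and 8.79 CPM. The mitophagy receptor gene bnip3 was at 211 and 89.4 CPM, and at 172 and 44.9 CPM in WT. Injured libraries of both genotypes were the lower ones for these 3 genes. Antioxidant enzymes had 7 of 36 (19.4%) lower, beside 5.19% of all genes, and none higher, although their median of -0.08 is 0.02 under DESeq2 size factors. Among them the peroxisomal catalase gene cat was at 193 and 77.7 CPM, the metallothionein gene mt2 at 17.7 and 4.94 CPM, and gpx4a, which reduces lipid peroxides, at 47.3 and 19.4 CPM.

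Protein folding genes of the cytosol were the group with the second largest share of higher calls among the 48 lists, after tubulins. Of 38 chaperones and heat shock factors above the floor 14 were at least 2-fold higher and none lower, with a median of 0.71, against the background of 3.25% higher. In WT 10 of 36 were higher. Of the 14, 6 were also higher than in uninjured WT. hsp90aa1.1, the Hsp90 of developing and stressed muscle, was at 17.7 CPM uninjured and 114 CPM at 20 dpa, 6.47-fold higher (95% counting interval 6.06 to 6.91), beside 12.7 and 122 CPM in WT. hsp70l stood at 1.27 and 12.1 CPM, with 2.88 and 8.59 CPM in WT, though its near-identical hsp70 copies may share reads. smyd1b, a methyltransferase that works with Hsp90 in myosin folding, had 26.3 and 151 CPM in the mutant and 88.2 and 187 CPM in WT. hspa4a, an exchange factor for Hsp70, was at 23.8 and 98.1 CPM, and at 40.5 and 112 CPM in WT. In hsp90aa1.1, hsp70l, smyd1b and hspa4a both injured libraries were above both uninjured ones, and for all but the first the uninjured mutant library was the lowest. DNAJA4, a J-domain co-chaperone outside the list, was also among the largest upward differences (1.98 CPM uninjured and 17.6 CPM at 20 dpa).

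Chaperones of the endoplasmic reticulum were called higher in 4 of 44 genes (9.09%) and lower in 1 (2.27%), beside 3.25% and 5.19% of all genes. The median was 0.10, while in WT 12 of 44 were higher and none lower with a median of 0.47. hspa5, the Hsp70 of that compartment, was at 53.8 and 131 CPM in the mutant and 66.3 and 191 CPM in WT. manf had 6.62 and 18.2 CPM beside 7.92 and 22.7 CPM. The lower gene was ern1, the stress sensor Ire1, with 16.3 CPM uninjured and 7.09 CPM at 20 dpa in the mutant and 12.8 and 27.4 CPM in WT. The 2 genes of the collagen chaperone Hsp47 were higher in either genotype. serpinh1b stood at 3.97 and 33.8 CPM in the mutant, 8.51-fold higher (95% counting interval 7.44 to 9.78), and at 9.46 and 38.9 CPM in WT. serpinh1a had 6.75 and 30.4 CPM, 4.501-fold higher (95% counting interval 4.04 to 5.03), and 8.46 and 48.5 CPM in WT. Both were also higher than in uninjured WT. They were the only higher members (8%) among 25 genes of collagen maturation, of which 2 (loxl1 and p3h2) were lower (8%).

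**Figure D3:**
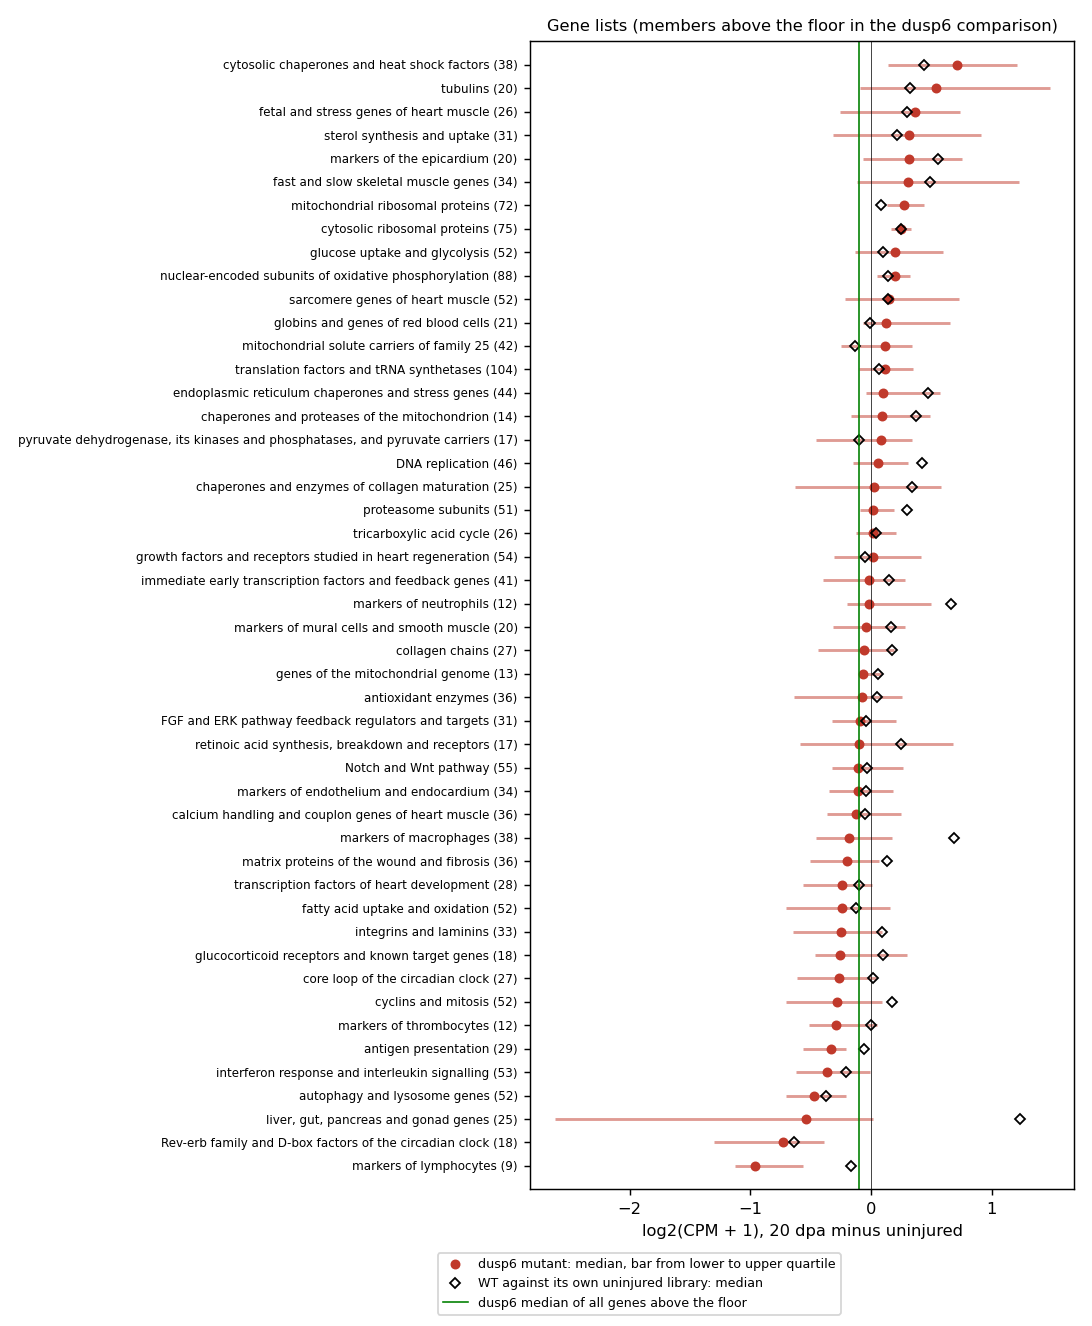
Median of the log2(CPM + 1) difference for each of 48 gene lists in the dusp6 mutant (circles, with bars from the lower to the upper quartile over members above the floor, whose number is in brackets) and in WT against its own uninjured library (diamonds, over members above the floor there). Cytosolic chaperones (0.71) and tubulins (0.54) are at the top, and lymphocyte markers (-0.96, or -0.13 at a floor of 250 counts) and the Rev-erb and D-box factors (-0.73) at the bottom; the green line is the median of all genes, -0.10.

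Of 52 sarcomere genes of the contractile apparatus above the floor 8 (15.4%) were higher and 3 (5.77%) lower, beside 3.25% and 5.19% of all genes, with a median of 0.15, and 6 of the 8 were also higher than in uninjured WT. In WT 7 of 51 were higher and 1 lower. smyd1b, given with the chaperones, is also 1 of the 8. myoz2a, a Z-disc protein gene, was at 4.77 CPM uninjured and 39.2 CPM at 20 dpa, 8.22-fold higher (95% counting interval 7.27 to 9.32), and at 8.16 and 15.3 CPM in WT. tnnc1b, a troponin C gene, stood at 18.6 and 110.2 CPM, 5.91-fold higher (95% counting interval 5.55 to 6.305), with 20.6 and 60.3 CPM in WT. myh6, the atrial myosin heavy chain gene, had 48.7 and 234 CPM, 4.81-fold higher (95% counting interval 4.62 to 5.01), and 91.7 and 144 CPM in WT. For each the injured mutant library was the highest of the 4. tcap, the titin cap gene, followed with 69.3 and 312 CPM in the mutant and 100.4 and 226 CPM in WT. mybphb, a myosin binding protein gene, was at 19.01 and 74.97 CPM, and at 22.2 and 28.1 CPM in WT.

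The ventricular myosin gene vmhc was at 728 CPM uninjured and 232 CPM at 20 dpa, 3.13-fold lower (95% counting interval 3.07 to 3.19), whereas WT had 377 and 671 CPM, 1.78-fold higher. vmhcl, its far more abundant copy, stood at 35690.2 and 25926 CPM in the mutant and 33874 and 27879 CPM in WT. Reads of the copies may be split between them, so the vmhc value is uncertain. Per length, myoz2a, tnnc1b and tcap were at 24.9, 113 and 235 RPKM in the injured mutant library and myl7 and tnnt2a at 11796 and 4222 RPKM. vmhcl was at 3438 RPKM there, beside 34.7 RPKM for vmhc and 35.4 RPKM for myh6. The regulatory light chain gene myl7 (19099.6 and 17629 CPM) and tnnt2a (5064 and 5568 CPM) differed by less than 1.5-fold. lmod2a, which caps and extends thin filaments, was lower at 179 and 62.9 CPM, with 115 and 40.1 CPM in WT.

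Among 26 fetal and stress genes of heart muscle 5 (19.2%) were higher, beside 3.25% of all genes, and none lower. Of the 5, 3 were also higher than in uninjured WT. The list median was 0.36, and 0.07 with uninjured WT as the reference. In WT 3 of 26 were higher and none lower. The natriuretic peptide gene nppa, a marker of wall stress, stood at 1569 CPM uninjured and 2399.8 CPM at 20 dpa in the mutant, 1.53-fold higher (95% counting interval 1.52 to 1.54), and at 1674 and 1542 CPM in WT. nppb was at 29.3 and 42.3 CPM in the mutant and 46.4 and 71.9 CPM in WT, so neither passed a 2-fold difference. The skeletal actin gene acta1b had 1425 and 3032 CPM, and actc1b 1.27 and 7.12 CPM, though near-identical actin genes may share reads. In WT actc1b was at 1.79 and 22.85 CPM, so the injured WT library was the highest. alpk2, an alpha-kinase gene of heart muscle, was high in the injured mutant library alone: 3.87 CPM uninjured and 34.6 CPM at 20 dpa, 8.94-fold higher (95% counting interval 7.803 to 10.3), with 4.35 and 4.35 CPM in WT.

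Calcium handling genes had 1 of 36 (2.78%) higher and 2 (5.56%) lower, near the 3.25% and 5.19% of all genes, with a median of -0.12. akap6, which anchors protein kinase A and ryanodine receptors at the nuclear envelope of heart muscle cells in mammals, stood at 104 CPM uninjured and 13.2 CPM at 20 dpa, 7.88-fold lower (95% counting interval 7.302 to 8.52), and at 145 and 6.09 CPM in WT, 23.8-fold lower. The other lower member was the calcium channel subunit gene cacna2d2a, and the higher one the calmodulin gene calm3b. Outside the list, the calcium-binding protein gene calb1 had 0 counts uninjured and 814 (14.6 CPM) at 20 dpa, at least 296-fold higher against a floor of 3 counts in the uninjured dusp6 library. In WT it was at 0 and 2.57 CPM. The list of heart transcription factors had 2 of 28 (7.14%) lower, a MEF2A copy and gata4 (20.1 and 8.24 CPM), beside 5.19% of all genes. Its only higher member was smyd1b, the methyltransferase gene given with the chaperones.

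**Figure D4:**
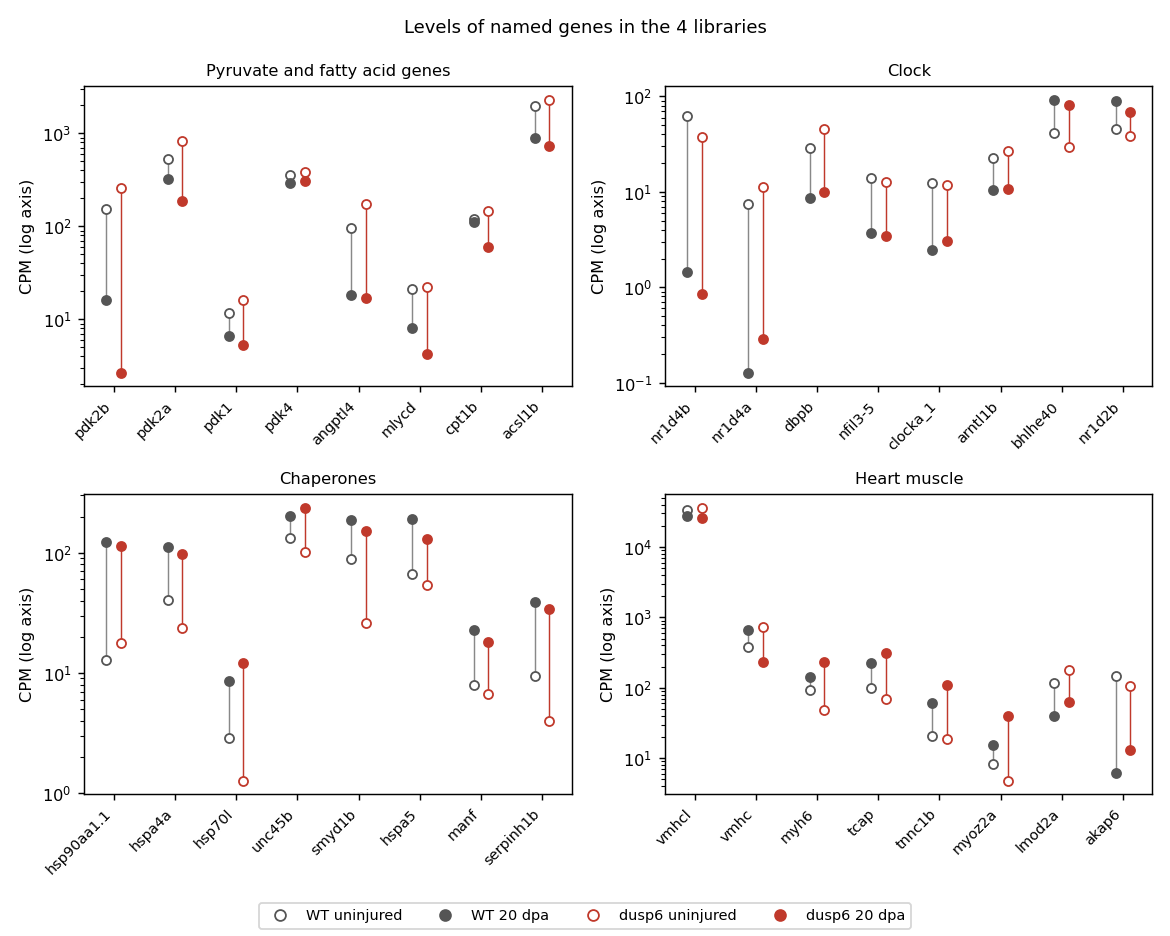
Levels in CPM on log axes of genes of 4 groups in the 4 libraries; each point is 1 library, grey for WT and red for dusp6, open for uninjured and filled for 20 dpa, and lines join libraries of a genotype. pdk2b is at 2.66 CPM in the injured mutant library against 256 CPM uninjured, and myoz2a, tnnc1b and myh6 are highest in the injured mutant library.

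Tubulins had the largest share of higher calls among the 48 lists, 9 of 20 above the floor (45%), beside 3.25% of all genes. None was lower, the median was 0.54, and 6 of the 9 were also higher than in uninjured WT. Tubulin copies are close in sequence, and reads may be split between them. tuba1c was at 5.397 CPM uninjured and 52.9 CPM at 20 dpa, 9.797-fold higher (95% counting interval 8.74 to 11.01), beside 12.2 and 14.9 CPM in WT. tuba1a stood at 7.95 and 50.6 CPM, and at 9.84 and 23.5 CPM in WT. tuba8l3 had 23.1 and 135 CPM in the mutant and 34.1 and 168 CPM in WT. For tuba1c and tuba1a the injured mutant library was well above the other 3, while for tuba8l3 both injured libraries were high. In WT 7 of 20 tubulins were higher.

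Of 75 cytosolic ribosomal protein genes 74 lay above the median of all genes, with a median of 0.25 and no call. Of 72 mitochondrial ribosomal protein genes 69 did, with a median of 0.28 and no call. The WT medians were 0.25 and 0.08. With uninjured WT as the reference, the medians of the injured mutant library were 0.47 and 0.08. The mitochondrial list summed to 1933 CPM uninjured and 2326 CPM at 20 dpa in the mutant, and to 2190 and 2312 CPM in WT. All genes had a median of 0.07 above 100 CPM and of -0.07 at 10 to 100 CPM. Among 104 translation factors and tRNA synthetases 2 (1.92%) were higher and 1 (0.962%) lower, beside 3.25% and 5.19% of all genes. The higher ones were eif4a1a (24.9 and 81.9 CPM), an RNA helicase that unwinds messages, and eif4e1c (8.33 and 27.8 CPM), a cap-binding factor of fish. eif4ebp3, an inhibitor of cap binding, was lower at 13.3 and 2.62 CPM. Proteasome subunits had 1 call in 51 (1.96% lower), psme4a, an activator of the core particle, at 177 CPM uninjured and 44.3 CPM at 20 dpa.

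The ERK feedback genes, the known readout of the pathway Dusp6 restrains, held no call. Of 31 above the floor 0 were past 2-fold in either direction, beside 8.44% of all genes, with a median of -0.10, beside -0.10 for all genes. The dusp6 transcript was present in both mutant libraries, at 184 CPM uninjured and 113 CPM at 20 dpa, 1.62-fold lower (95% counting interval 1.58 to 1.68), beside 90.05 and 105 CPM in WT. Since the transcript remains, its level does not check the genotype. etv4, an ETS factor induced by FGF signalling, was at 13.9 and 8.65 CPM in the mutant and 8.37 and 14.4 CPM in WT. The pathway inhibitor gene spry2 stood at 34.1 and 22.9 CPM, and dusp4, a nuclear phosphatase of the same family, at 4.84 and 8.33 CPM. dusp6, etv4 and spry2 were thus lower at 20 dpa and dusp4 higher, all by less than 2-fold. In WT 0 of 31 were called as well.

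Immediate early genes had 4 of 41 (9.76%) higher and 1 (2.44%) lower, beside 3.25% and 5.19% of all genes. Their median of -0.02 is 0.09 under DESeq2 size factors. The 4 were the flow-responsive factors klf2a (21.1 and 73.01 CPM) and klf2b (15.3 and 48.8 CPM), their relative klf4 (0.395 and 3.73 CPM) and the growth regulator myca (1.201 and 6.68 CPM). All 4 were also at least 2-fold higher than in uninjured WT. In WT klf2a was at 25.4 and 57.9 CPM and klf2b at 10.3 and 32.4 CPM.

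Among 54 growth factors and receptors studied in heart regeneration 4 (7.41%) were higher and 1 (1.85%) lower, with a median of 0.01. The shares of all genes were 3.25% and 5.19%. igfbp6b, which binds insulin-like growth factors, was at 80.4 CPM uninjured and 629 CPM at 20 dpa, 7.83-fold higher (95% counting interval 7.596 to 8.07), and at 95.9 and 311 CPM in WT. The chemokine gene cxcl12b stood at 32.4 and 80.8 CPM and tgfb3 at 54.9 and 120.1 CPM. Of the 4 higher genes 2 were also at least 2-fold higher than in uninjured WT. tgfb3, at 91.2 CPM in uninjured WT, was not. The receptor gene igf1ra was lower, at 12.7 and 4.58 CPM. nrg1, a mitogen for heart muscle cells, stayed under the floor, with at most 0.59 CPM in any library. vegfaa, a growth factor of vessels, was at 29.4 and 35.1 CPM.

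Of 20 epicardial genes above the floor 2 (10%) were called higher and none lower, beside 3.25% and 5.19% of all genes. Above the median of all genes lay 16, and the group median was 0.31 beside 0.55 in WT. Summed over the list, levels were 3931 CPM uninjured and 3765 CPM at 20 dpa in the mutant and 3518.5 and 4855 CPM in WT. aldh1a2, which makes retinoic acid in the activated epicardium, was at 32.6 CPM uninjured and 109 CPM at 20 dpa, 3.35-fold higher (95% counting interval 3.18 to 3.52), and at 44.8 and 149.5 CPM in WT. krt5, a keratin gene, stood at 0.773 and 4.85 CPM, with 0.332 and 5.18 CPM in WT. tcf21, a marker of the resting and active layer, had 12.6 and 24.97 CPM beside 12.7 and 21.5 CPM. Injured libraries were the higher ones for all 3 genes. Of 17 retinoic acid genes 3 (17.6%) were higher, aldh1a2 and the binding proteins crabp2a and crabp2b, beside 3.25% of all genes, and none was lower. Their median of -0.10 is 0.005 under DESeq2 size factors.

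Endothelium and endocardium had 2 of 34 markers (5.88%) higher and 2 (5.88%) lower, beside 3.25% and 5.19% of all genes. Their median of -0.11 is above 0 under DESeq2 size factors. The water channel gene aqp8a.1 was at 281 and 871 CPM and the angiopoietin receptor gene tek at 56.1 and 137 CPM. The scavenger receptor gene stab1 (45.5 and 17.98 CPM) and robo4 (5.84 and 1.81 CPM) were lower. Markers of mural cells and smooth muscle had 2 of 20 (10%) higher, cnn1b and tagln2, and 2 (10%) lower, against the same shares of all genes. Their median of -0.04 is 0.04 under DESeq2 size factors. The 2 lower markers, the elastin genes elna and elnb, are also the lower members of the wound matrix list.

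Of 36 wound and fibrosis matrix genes 2 (5.56%) were higher and 2 lower in the mutant, beside 3.25% and 5.19% of all genes, with a median of -0.20, against 6 higher and 3 lower of 37 in WT with a median of 0.13. The 2 higher genes, hapln1a and bgnb, were not 2-fold higher than in uninjured WT, while the 2 lower ones were also lower against it. Of 27 collagen chains none was higher and 1 (3.7%) lower, while in WT 5 of 28 were higher and 3 lower. Their mutant median of -0.06 is 0.05 under DESeq2 size factors. col1a1a, a chain of type I collagen, stood at 155 CPM uninjured and 172 CPM at 20 dpa in the mutant and at 115 and 269 CPM in WT. fn1b, a fibronectin gene, had 209 and 183 CPM in the mutant and 166 and 437 CPM in WT. In both genes the injured WT library was above the other 3. postnb, made by activated fibroblasts, was at 19.9 and 38.2 CPM, beside 24.2 and 50.8 CPM. The elastin genes elna (37.1 and 13.8 CPM) and elnb (8.85 and 1.96 CPM) were lower, and in WT they stood at 40.7 and 18.01 CPM and at 17.5 and 7.61 CPM. Integrins and laminins had 4 of 33 (12.1%) lower, beside 5.19% of all genes, and 1, itga2.3, higher. Of the 4 lower genes 2 were also lower against uninjured WT, and 3 genes were lower under DESeq2 size factors.

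Of 38 macrophage markers above the floor 2 (5.26%) were higher and 3 (7.89%) lower in the mutant, beside 3.25% and 5.19% of all genes. The median of these markers was -0.18, whereas in WT 9 of 40 were higher and none lower with a median of 0.69. Their summed level was 802.7 CPM uninjured and 625.0 CPM at 20 dpa in the mutant, and 704.7 and 997.9 CPM in WT. grn2, a granulin gene, stood at 0.905 CPM uninjured and 6.95 CPM at 20 dpa, beside 0.269 and 3.75 CPM in WT. mfap4, a marker of zebrafish macrophages, had 1.81 and 6.26 CPM in the mutant and 1.53 and 14.4 CPM in WT. The lower members apoeb (5.04 and 0.915 CPM) and hmox1a (14.2 and 5.56 CPM), which encodes heme oxygenase, were highest in the uninjured mutant library. The remaining lower member, the granulin gene grnb, stood at 23.1 and 8.18 CPM in the mutant and at 21.4 and 10.3 CPM in WT. It was thus lower at 20 dpa in either genotype, unlike grn2.

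Lymphocyte markers were low throughout, and 9 of the 33 on the list were above the floor. Of these 4 (44.4%) were called lower, beside 5.19% of all genes, and none higher, and 2 of the 4 were also lower against uninjured WT. The median over the 9 was -0.96. That median was -0.13 for members with 250 or more counts and -0.20 with a pseudocount of 10 CPM. The costimulatory receptor gene cd28 was at 12.5 CPM uninjured and 3.81 CPM at 20 dpa, with 6.17 and 5.49 CPM in WT. ighd, an immunoglobulin heavy chain gene, stood at 1.98 and 0.359 CPM, beside 2.61 and 0.9602 CPM. The list summed to 43.9 and 25.4 CPM in the mutant and 39.8 and 35.5 CPM in WT. Neutrophil markers had 1 of 12 (8.33%) lower and 1 (8.33%) higher, beside 5.19% and 3.25% of all genes. The lower one was mpx (6.98 and 1.74 CPM, with 0.823 and 2.05 CPM in WT) and the higher one lyz. The median of the 12 markers, -0.02, is 0.08 under DESeq2 size factors, beside 0.66 in WT. Antigen presentation had 3 of 29 genes (10.3%) lower and none higher, beside 5.19% and 3.25% of all genes. Interferon response genes had 3 of 53 (5.66%) lower and 1 (1.89%) higher, near those shares. Of the lower genes 2 of antigen presentation and 1 of interferon response were also lower against uninjured WT. The medians of -0.34 and -0.37 lay below the median of all genes too. psme4a, the call among proteasome subunits, is also 1 of the 3 lower members of the antigen presentation list. The thrombocyte list had 0 calls in 12 genes, and the globin and red cell list 0 in 21, with hbaa1 at 2428 and 4712 CPM.

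Of 46 replication genes 1 (2.17%) was higher and 1 (2.17%) lower, beside 3.25% and 5.19% of all genes. The median was 0.06, while in WT 8 were higher and 1 lower with a median of 0.42. mcm5, a subunit of the replicative helicase, was at 3.34 CPM uninjured and 8.63 CPM at 20 dpa, and at 3.81 and 14.1 CPM in WT. mcm2 stood at 2.402 and 5.44 CPM in the mutant and 3.26 and 14.5 CPM in WT. pcna, the clamp that holds the polymerase on DNA, had 21.9 and 30.1 CPM, beside 22.2 and 47.6 CPM. In these 3 genes the injured mutant library lay between the uninjured libraries and the injured WT library. mcm7 went the other way, at 26.2 and 6.66 CPM in the mutant and 19.2 and 7.99 CPM in WT. orc5, another replication gene, stood at 1.22 and 3.09 CPM in the mutant and 1.74 and 2.99 CPM in WT, with the injured mutant library slightly the highest.

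Of 52 cyclin and mitosis genes 5 (9.62%) were lower, beside 5.19% of all genes, and none higher, with a median of -0.29 (above 0 for members with 250 or more counts). Under TMM and under DESeq2 size factors 3 were lower and 1 higher. Of the 5 lower genes by column total 3 were also lower against uninjured WT. plk1, a kinase of mitotic entry, was at 2.24 and 0.377 CPM, 5.94-fold lower (95% counting interval 3.73 to 9.902), and at 1.74 and 2.14 CPM in WT. The other lower genes by column total were the G1 genes cdk6 and ccnd2a and the inhibitor genes cdkn1bb and cdkn1a (16.3 and 7.14 CPM). The lower members thus both drive and restrain the cycle. mki67, a marker of cycling cells, stood at 4.34 and 3.91 CPM in the mutant and 2.77 and 5.02 CPM in WT.

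In the mutant 10 of 34 skeletal muscle genes above the floor (29.4%) were higher, beside 3.25% of all genes, and none lower. The median was 0.30 (below 0 for members with 250 or more counts), and in WT 18 of 39 were higher. mylpfa, the fast light chain gene, had 0.313 CPM uninjured and 5.21 CPM at 20 dpa, and 0.459 and 17.7 CPM in WT. pvalb1, a parvalbumin gene, stood at 0.115 and 5.35 CPM, beside 0.585 and 9.47 CPM. The fast myosin gene myhc4 had 1 count uninjured and 199 at 20 dpa in the mutant. These fast muscle markers were highest in the injured WT library. The list overlaps the sarcomere list at tnnc1b, for which the injured mutant library was the highest. Summed over the list, levels were 5802 CPM uninjured and 5130.4 CPM at 20 dpa in the mutant and 5986 and 4966 CPM in WT. The part of skeletal muscle in the sarcomere values was not tested.

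Chaperones and proteases of the mitochondrion had 0 in 14 genes, with a median of 0.09. Glucocorticoid receptors and targets had 2 of 18 lower, mt2 and klf9, beside 5.19% of all genes, and none higher, with a median of -0.25. Only mt2 was also at least 2-fold lower than in uninjured WT. klf9 stood at 4.15 and 1.45 CPM in the mutant and went the other way in WT, at 2.93 and 5.36 CPM. In WT 2 of 18 were higher and 3 lower, with a median of 0.10. The Notch and Wnt pathways had 2 of 55 (3.64%) higher, fzd9b and frzb, and 1 (1.82%) lower, wnt11, beside 3.25% and 5.19% of all genes. Their median of -0.11 is 0.005 under DESeq2 size factors. fzd9b stood at 27.2 and 71.8 CPM and frzb at 13.3 and 29.2 CPM, and uninjured WT had 74.6 and 30.3 CPM. Neither was thus above uninjured WT at 20 dpa.

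The remaining upward differences among the 15 largest were in genes of varied function. arg2, the mitochondrial arginase gene, was at 3.97 CPM uninjured and 61.4 CPM at 20 dpa, 15.5-fold higher (95% counting interval 13.6 to 17.7), and at 13.5 and 88.8 CPM in WT. lin7b, a scaffold gene of cell junctions, had 0.181 and 13.6 CPM, 74.9-fold higher (95% counting interval 41.6 to 151), and 0.253 and 3.73 CPM in WT. clec19a, a C-type lectin gene, stood at 1.33 and 27.6 CPM, 20.7-fold higher (95% counting interval 16.6 to 26.2), beside 3.23 and 7.68 CPM. All 3 were higher at 20 dpa in both genotypes, with the injured mutant library the highest for lin7b and clec19a. Among the downward ones ptprq, a receptor phosphatase gene, was at 14.3 CPM in the uninjured dusp6 library and between 0.41 and 0.95 CPM in the other 3.

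Set beside WT against its own uninjured library, the mutant response kept its sign in most called genes. Of the 489 genes higher in the mutant, 390 (79.8%) were above 0 in WT, as were 42.6% of all genes. Of the 781 lower genes 654 (83.7%) were below 0 in WT, as were 57.3% of all genes. Genes higher in both numbered 162, or 33.1% of the mutant and 34.3% of the WT list, and genes lower in both 198, or 25.4% and 47.4%. Across 15621 genes the differences correlated with Pearson's r 0.55 and Spearman's rho 0.58. The 2 comparisons share no library, but genes are not independent replicates. The column headings of both uninjured libraries follow a naming pattern that differs from that of both injured libraries. A difference in preparation between uninjured and injured libraries may thus enter both comparisons. Its part in the shared signs and in the correlation was not tested. Whether a gene's response differed between the genotypes was not tested, since 1 library a group leaves no error.

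Some of the widest gaps between the genotypes came with a single library that stood apart. fkbp5, a target of glucocorticoid receptors, was at 11.8 CPM uninjured and 19.3 CPM at 20 dpa in the mutant and at 6.99 and 142 CPM in WT, so the injured WT library alone was high. gpd1a, a glycerol phosphate dehydrogenase gene, stood at 6.73 and 4.86 CPM in the mutant and 0.1898 and 9.37 CPM in WT. f13a1a.1, a coagulation factor gene, had 0.2797 and 0.269 CPM in the mutant and 24.98 and 0.145 CPM in WT. For gpd1a the uninjured WT library was low and for f13a1a.1 it was high, with the other 3 libraries on the opposite side. Genes past 2-fold in opposite directions were few, with 10 higher in the mutant and lower in WT, and 7 the reverse.

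**Figure D5:**
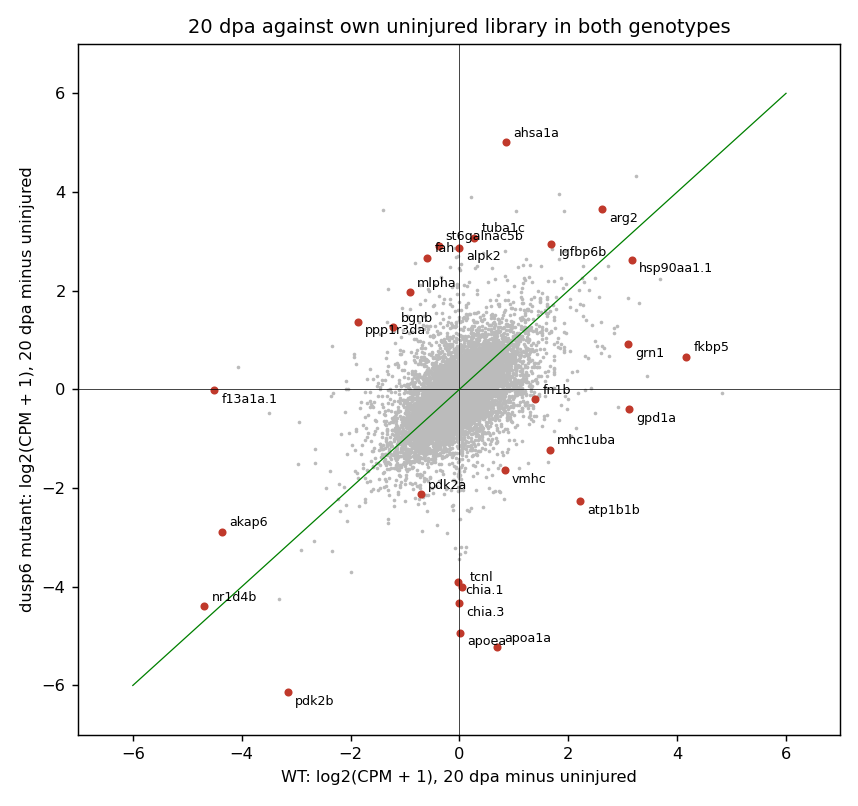
Response of the dusp6 mutant against that of WT, each as the log2(CPM + 1) difference between the 20 dpa and the uninjured library of the same genotype; each point is 1 of 15621 genes above the floor in either comparison. The green line marks equal differences, and labelled genes are red. pdk2b (-3.16 in WT and -6.13 in the mutant) and nr1d4b lie at the lower left, arg2 and hsp90aa1.1 at the upper right, and fkbp5 far to the right at 4.17 in WT.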

How the data were processed

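RNA of heart ventricles was sequenced in 4 libraries, 1 per group, grouped by genotype and injury from the labels. The authors deposited whole-number counts per gene, named expression values in the file headers, and RPKM computed from them, per the file headers. No step that made the counts is given beyond these headers: the aligner, the genome build and whether counting used strand were not given in the sources used here. The uninjured libraries stand in both deposited tables with the same values and were used once.

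Counts were divided by the column total (CPM), and log2(CPM + 1) was compared between the dusp6 20 dpa and the dusp6 uninjured library for genes with 50 or more counts in either, a gene being called at a 2-fold difference. No test was run, since 1 library per group leaves no error. For named genes the ratio of CPM is given with an exact conditional 95% counting interval. Because reads carried no molecular identifiers that would make them independent molecules, these intervals and the floors below describe counting error alone. A count of 3, taken as the floor where a library had 0, is 0.0494 CPM in the uninjured dusp6 library and 0.0538 CPM at 20 dpa. The authors' RPKM served only to compare genes per length.

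The comparison, its 48 gene lists and the rule for named genes were chosen with earlier results of these data known. Named genes were the 15 largest differences in each direction among genes with 250 or more counts and a proper symbol (9 upward and 3 downward names without one were passed over), the 4 largest in each list, of which a subset is printed, the 8 largest in each direction of the mutant minus the WT difference, and 13 genes of heart regeneration, of which mpeg1 had no row under that name and is not reported. abca1b, acadvl, acsl4a, acta1b, aldocb, bhlhe41, cpt1b, ern1, fabp2, hmox1a, hspa4a, klf2b, lmod2a, mybphb, myl7, nr1d2b, pdk4, rorcb, spry2, tcap, tnnt2a, ucp3, vmhc, vmhcl and members given only by name were named after their values were seen. Gene symbols were taken from the tables; 25925 of their 31388 identifiers also matched the gene name reference. Alternatives were TMM factors (edgeR 4.0.16) and DESeq2 1.42.0 size factors in R 4.3.3, used for scaling only, other pseudocounts and floors, and other uninjured references. The scripts, in Python 3.11.15 with numpy 2.4.6, pandas 2.3.3 and scipy 1.17.1, were tested on simulated data.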

Additional observations from a re-analysis of the deposited data

Results flagged for a closer look

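Of the genes taken by the naming rule, 4 were past 2-fold in opposite directions in the mutant and in WT, each against its own uninjured library. The difference between the genotypes was not tested, because each group has 1 library. bgnb, a biglycan gene of the matrix, was 1.26 higher on the log2 scale in the mutant and stood at 2.35 CPM uninjured and 7.02 CPM at 20 dpa, while WT differed by -1.22, with 7.18 and 2.52 CPM. ppp1r3da, a glycogen-targeting subunit of protein phosphatase, differed by 1.37 in the mutant, at 8.46 and 23.4 CPM, and by -1.87 in WT, at 31.3 and 7.83 CPM. atp1b1b, a sodium pump subunit gene, differed by -2.27 in the mutant, at 88.2 and 17.5 CPM, and by 2.22 in WT, at 16.2 and 79.1 CPM. mhc1uba, a class I histocompatibility gene, differed by -1.22 in the mutant, at 211 and 89.9 CPM, and by 1.66 in WT, at 79.9 and 255 CPM. In all 4 genes the uninjured mutant library lay close to the injured WT library, and the injured mutant library close to the uninjured WT library. ern1, the stress sensor Ire1, was named in the text after its values were seen and also differed in opposite directions, by -1.10 in the mutant, at 16.3 and 7.09 CPM, and by 1.04 in WT, at 12.8 and 27.5 CPM.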

How the results depend on the processing

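The counts of 489 higher and 781 lower genes stayed within 1.5 times under TMM (600 and 639), DESeq2 size factors (614 and 625), a total without mitochondrial transcripts (531 and 902), centring on the median (612 and 600), a floor of 250 counts (349 and 619), the mean of both uninjured libraries (354 and 680) and WT uninjured (397 and 703) as reference, and without skeletal and other organ genes (478 and 772). Removing the floor is no check. A gene under 50 counts, at most 0.897 CPM, cannot pass 2-fold with a pseudocount of 1 CPM, so the counts had to stay at 489 and 781. The counts moved with the pseudocount, to 779 and 1461 at 0.1 CPM and to 111 and 124 at 10 CPM. Under TMM and DESeq2 size factors the sign changed in 1 gene taken by the naming rule, f13a1a.1, from -0.01 to 0.01 under each, and it was under the floor in the mutant. Under DESeq2 size factors 9 moved past 2-fold and 4 moved inside it, and with a pseudocount of 10 CPM 80 moved inside it. The median changed sign in 9 of 48 lists under DESeq2 size factors, 6 under TMM, 4 at a floor of 250 counts and 1 at a pseudocount of 10 CPM. The lymphocyte median of -0.96 moved to -0.20 at a pseudocount of 10 CPM and to -0.13 at a floor of 250 counts. No paired analysis was possible because each group has 1 library and the labels carry no replicate numbers, and no library could be left out. A search of promoters for clock and heat shock motifs was not run, since no promoter sequence was used here.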
